A study of Mus musculus with 3 samples.

Results

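The RNA levels of 10 genes of the NF-kappaB pathway were followed in leukocytes sorted from the lymph nodes that drain B16F10 melanomas in mice. The genes encode the 5 subunits of the transcription factor (Nfkb1, Nfkb2, Rel, Rela and Relb), 3 cytoplasmic inhibitors (Nfkbia, Nfkbib and Nfkbie) and the 2 catalytic kinases that act on the inhibitors (Ikbkb and Chuk). They were taken by symbol from a deposited table of 17857 genes, and all 10 were found there. B16F10 is a melanoma line of C57BL/6 origin. It was implanted in both thighs of C57BL/6 mice, listed as strain C57BL/6J, which per the labels were given no treatment; no engineered allele is named. On day 14 the draining nodes were pooled, and CD11c-negative cells that carried both Ly6C and c-kit were collected by sorting as a precursor population. The only group consists of 3 libraries labelled ckit_pos, called replicates 1, 2 and 3 here, with no control population, and the sources used here give neither the number nor the age of the mice. The series' title concerns BTK, IDO and the differentiation of inflammatory dendritic cells, and the public dendritic cell data of its design are not analysed here. The question taken up here is how much RNA of each NF-kappaB component the sorted cells held.

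NF-kappaB proteins bind DNA as dimers through a shared Rel homology domain. In resting cells IkappaB proteins hold the classical dimers in the cytoplasm. Receptors for antigen, tumour necrosis factor, interleukin 1 and microbial products switch on the IkappaB kinase complex, which marks the inhibitors for destruction and frees the dimers. An alternative arm, driven by receptors such as CD40 and the lymphotoxin beta receptor, uses Map3k14 and Chuk to process the Nfkb2 precursor, which then pairs with RelB. Several genes of the pathway, Nfkbia foremost, are themselves targets of NF-kappaB, which closes a feedback loop. In lymph nodes the pathway is known for lymphocyte activation, for the maturation of dendritic cells and for the survival of B cells.

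The libraries held 9077195 to 13885509 counts. Levels are normalised read counts (CPM), given as mean ± SD over the 3 libraries (n = 3), and levels of different genes were compared per kilobase of the gene length in the table. Nothing in the labels says that the repeat experiments used separate mice, so p-values reflect the spread between 3 samples, which may be technical. In edgeR's test the spread of a gene is also drawn toward that of other genes of like level. Its p-values and standard errors thus do not measure the spread of that gene alone. T cell genes were high, with 12 of 12 listed markers above 50 CPM in edgeR's test (adjusted p under the threshold of 0.05). They summed to 3995, 5479 and 5062 CPM in replicates 1, 2 and 3. Not every marker passed 50 CPM in each library. Replicate 1 held only 18.2 CPM of Cd8b1 and 8.67 of Cd8a. Their levels were 421 and 526 CPM in replicate 2, then 123 and 135 in replicate 3. Of the sort genes, Kit, which encodes the required c-kit, was read at 9.83, 5.35 and 5.92 CPM. Ly6c1 and Ly6c2, which encode Ly6C, were read at 19.1, 4.28 and 17.6 CPM and at 11.5, 121 and 41.2 CPM. Itgax, which encodes the excluded CD11c, was read at 26.9, 43.2 and 24.0 CPM, and per kilobase it exceeded Kit in each library (6.69, 10.7 and 5.96 against 1.90, 1.03 and 1.14). Of 8 stem and progenitor genes, 7 lay below 50 CPM, as did 66.7% of all genes tested. The other 1, Myb, which lymphocytes also use, lay above it, as did 19.9% of all genes. Cd34 had no count in replicate 2, and Mpo averaged 0.563 ± 0.337 CPM. The libraries differed in other cell types. All 8 erythroid and all 8 B cell markers were highest in replicate 1 (summed levels of 4493, 143 and 389 CPM, and of 412, 156 and 219 CPM), all 6 natural killer markers were highest in replicate 2 (76.8, 588 and 234 CPM), and all 8 neutrophil markers were highest in replicate 3 (182, 77.0 and 754 CPM). Of 8 monocyte markers 3 lay above 50 CPM (Lyz2, Ctss and Csf1r) and 3 below, and 6 were highest in replicate 1, with summed levels of 1082, 1030 and 587 CPM. In bulk RNA, fewer cells of a type and less RNA per cell cannot be told apart.

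RefSeq promoters on build GRCm38.p6, the assembly that mm10 represents, were matched for 7 of the 10 genes, all but Nfkb1, Relb and Ikbkb. They are shown because some of these genes are textbook targets of the factor they encode. The textbook kappaB consensus, a pattern of 10 bases that opens with GGG and closes with CC, was searched on both strands from 250 bases before to 50 after each start. It was present for 4 of the 7 genes (Nfkb2, Rel, Nfkbia and Nfkbie), or 57.1%, where a gene counts if any of its promoters matched. Counted by promoter, it was present in 6 of 9, or 66.7%, and in 8.5% of all 32851 promoters of that length. The 6 include all 3 promoters of Nfkb2, of which the more downstream ones overlap and hold the same GGGACTTTCC site. That site is thus counted more than once. No share of all genes was taken to set beside the count by gene. The looser GGGNNNNNCC, which contains the consensus, was present for 6 of the 7 genes, in 8 of their 9 promoters and in 50.8% of all promoters. A match describes letters in a window and does not show binding. The 120 bases just before the start follow, 5′ to 3′ on the strand of the gene, with consensus matches in capitals, for the 4 genes with a match and for Rela, which has none.
Nfkb2: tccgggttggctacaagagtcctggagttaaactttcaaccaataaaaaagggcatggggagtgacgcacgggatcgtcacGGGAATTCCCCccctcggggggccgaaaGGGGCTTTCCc
Rel: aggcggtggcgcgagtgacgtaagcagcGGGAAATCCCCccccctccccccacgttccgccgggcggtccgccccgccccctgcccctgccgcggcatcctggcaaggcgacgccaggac
Nfkbia: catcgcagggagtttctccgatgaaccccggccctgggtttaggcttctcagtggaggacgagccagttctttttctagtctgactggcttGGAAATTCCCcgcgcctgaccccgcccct
Nfkbie: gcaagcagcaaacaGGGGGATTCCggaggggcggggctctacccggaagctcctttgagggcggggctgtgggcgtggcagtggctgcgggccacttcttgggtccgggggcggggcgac
Rela: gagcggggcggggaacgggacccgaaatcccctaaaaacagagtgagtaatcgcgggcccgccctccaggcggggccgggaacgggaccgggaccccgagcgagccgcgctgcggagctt
The windows are, for Nfkb2, chr19:46304617-46304736 on the plus strand, the most upstream of the 3 Nfkb2 starts matched, for Rel, chr11:23770970-23771089 on the minus strand, for Nfkbia, chr12:55492648-55492767 on the minus strand, for Nfkbie, chr17:45555580-45555699 on the plus strand and, for Rela, chr19:5637421-5637540 on the plus strand. In Nfkb2 the palindrome GGGAATTCCC, which matches on both strands, spans bases -39 to -30 and overlaps a further match shifted by a base, and GGGGCTTTCC spans -11 to -2. The Rel window holds GGGAAATCCC at -92 to -83, also a match on both strands and overlapped by another. Nfkbia has GGGAATTTCC at -29 to -20 on the strand opposite to the gene, and Nfkbie has GGGGGATTCC at -106 to -97. The genes with a match had no common level, since Nfkbia lay at the top of the 10 per kilobase, Rel and Nfkbie in the middle and Nfkb2 below them.

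All 10 genes were well measured, with 228 to 5245 counts per library. Per kilobase, every gene lay above the median of the 15490 genes tested (5.50 CPM per kilobase), between the 69.8th percentile for Nfkbib and the 95.7th for Nfkbia, and the highest exceeded the lowest by 5.14-fold. The median of the 10 genes was 24.4 CPM per kilobase. In edgeR's test 10 of 10 lay above 1 CPM, as did 68.6% of all genes tested. Against 50 CPM, 7 of 10 lay above, where 19.9% of all genes did, and 2 of 10 below, where 66.7% of all genes did. Because these genes were picked with earlier results known, the counts describe them and carry no test of the list.

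**Figure D1:**
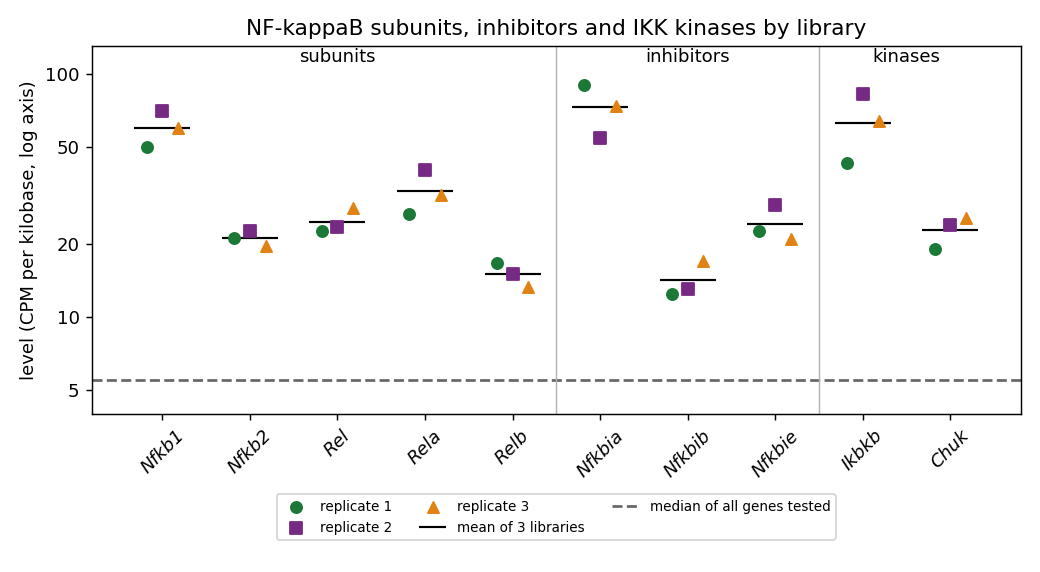
Level of each gene in CPM per kilobase on a log axis, with one point per library, a bar for the mean of the 3 libraries and a dashed line at the median of all genes tested (5.50). Nfkbia, Ikbkb and Nfkb1 lie highest, Relb and Nfkbib lowest, and every point is above the dashed line.

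Among the subunits, Nfkb1 was the most abundant. It encodes the precursor of the small classical subunit, which lacks an activation domain of its own. Replicates 1, 2 and 3 held 206, 290.1 and 246 CPM of Nfkb1 (247 ± 42.0), or 60.1 ± 10.2 CPM per kilobase. Replicate 2 was highest and replicate 1 lowest. It lay 2.31 ± 0.12 log2 units (SE) above 50 CPM (edgeR adjusted p = 2.18e-06), and it supplied 36.5%, 41.0% and 39.2% of the summed level of the 5 subunits per kilobase. Nfkb1 is Entrez gene 18033 and spans chromosome 3, 135584655 to 135691969 (GRCm38.p6, as for the spans that follow), and the provisional gene Gm43430 covers 3897 bases of that span on the same strand.

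Rela encodes the main transactivating partner of the classical dimer. Rela was read at 72.1, 109 and 85.8 CPM (89.0 ± 18.7), or 32.85 ± 6.90 CPM per kilobase, and its libraries stood in the same order as those of Nfkb1. Its level was 0.83 ± 0.15 log2 units above 50 CPM (edgeR adjusted p = 0.00146). Per kilobase Nfkb1 exceeded Rela by 0.91, 0.81 and 0.91 log2 units, so this interval was nearly constant between libraries. Rela is Entrez gene 19697 on chromosome 19, 5637442 to 5648134.

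Rel encodes c-Rel, the transactivating subunit prominent in lymphocytes. Rel was read at 58.2, 60.6 and 72.5 CPM (63.8 ± 7.62), or 24.7 ± 2.95 CPM per kilobase, and was highest in replicate 3. Its call above 50 CPM was narrow (0.35 ± 0.14 log2 units, edgeR adjusted p = 0.0444) and was lost in DESeq2 (0.0514), in limma (0.0505) and without replicate 1 (0.0530), 2 (0.0559) or 3 (0.305). Rela exceeded Rel by 0.24, 0.78 and 0.18 log2 units per kilobase, a mean of 0.40 ± 0.33 (SD), or 1.32-fold. The sign was the same in 3 of 3 libraries, and the exact two-sided sign-flip permutation p was 0.25, the smallest that 3 libraries allow. Rel is Entrez gene 19696 on chromosome 11, 23736847 to 23770969.

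The subunits of the alternative arm were lower per kilobase. Nfkb2 lay close to Rel in replicates 1 and 2, at 21.2 and 22.6 against 22.5 and 23.5 CPM per kilobase. In replicate 3 the levels were 19.6 against 28.0. In CPM without the length scaling, Nfkb2 exceeded Rel in replicates 1 and 2. Nfkb2, which encodes the precursor that the alternative arm processes, was read at 69.85, 74.4 and 64.5 CPM (69.6 ± 4.96), or 21.1 ± 1.51 CPM per kilobase. It was the evenest of the 10 genes, with a coefficient of variation of 7.125%. It lay 0.48 ± 0.13 log2 units above 50 CPM (edgeR adjusted p = 0.0126, and 0.0599 without replicate 3). Relb, which encodes the partner of the processed Nfkb2 product and is used by mature dendritic cells, was read at 36.8, 33.2 and 29.4 CPM (33.1 ± 3.69), or 15.0 ± 1.675 CPM per kilobase. It lay below 50 CPM (-0.59 ± 0.17 log2 units, edgeR adjusted p = 0.0132), a call lost without replicate 3 (0.158). Nfkb2 exceeded Relb in each library, by 0.35, 0.58 and 0.55 log2 units per kilobase. The 7 mature dendritic cell markers summed to 202, 157.5 and 166 CPM, of which Ccr7, which naive T cells also use, gave 148 ± 6.88. Cd86 (33.9, 10.6 and 14.2 CPM), Cd80 (4.44, 0.499 and 5.16) and Fscn1 (6.66, 0.0713 and 4.56) lay above 1 and below 50 CPM, and Ccl22, Ccl17 and Il4i1 had too few counts to test. The part of such cells in the Relb level was not tested. In the GENCODE M21 annotation Nfkb2 overlaps Psd on the other strand by 299 bases, and Psd reached at most 1.27 CPM. On that strand it also overlaps the noncoding gene AC114539.1 by 1292 bases, for which no level was available. The strand setting of the counting is not given, so part of the Nfkb2 reads may come from these genes. Nfkb2 is Entrez gene 18034 on chromosome 19, 46300994 to 46312400, and Relb is Entrez gene 19698 on chromosome 7, 19606217 to 19629438.

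Set side by side, the mean log2 level of Nfkb1, Rel and Rela exceeded that of Nfkb2 and Relb by 0.72, 1.13 and 1.22 log2 units per kilobase in replicates 1, 2 and 3. The mean was 1.02 ± 0.26 (SD), or 2.035-fold, positive in 3 of 3 libraries, with an exact two-sided sign-flip permutation p of 0.25. After adjustment over the 4 differences of this kind, each p was again 0.25. Taking the sum of levels in each arm in place of the mean gave 1.69 log2 units, since the classical arm has more genes.

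Of the inhibitors, Nfkbia stood far above the other two. It encodes IkappaB alpha, which NF-kappaB induces within its own feedback loop. Nfkbia was read at 142, 86.2 and 116 CPM (115 ± 27.9), or 89.95, 54.6 and 73.7 CPM per kilobase, and was highest in replicate 1 and lowest in replicate 2. Of the 10 genes it had the highest mean per kilobase (72.75 ± 17.7). Its level was 1.2 ± 0.15 log2 units above 50 CPM (edgeR adjusted p = 3.67e-04). Nfkbia is Entrez gene 18035 on chromosome 12, 55489409 to 55492647.

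Nfkbie and Nfkbib encode IkappaB epsilon and IkappaB beta, which also hold dimers in the cytoplasm. Nfkbie was read at 54.95, 69.8 and 50.8 CPM (58.5 ± 9.997), or 24.2 ± 4.13 CPM per kilobase, with replicate 2 highest. It was the one gene not separated from 50 CPM (0.23 ± 0.15 log2 units, edgeR adjusted p = 0.185), though it passed when mitochondrial ribosomal RNA was left out of the totals (0.0313). Nfkbib was read at 24.1, 25.5 and 33.0 CPM (27.5 ± 4.82), or 14.15 ± 2.48 CPM per kilobase, the lowest of the 10 genes. It lay below 50 CPM (-0.86 ± 0.19 log2 units, edgeR adjusted p = 0.00412). In the GENCODE M21 annotation Nfkbib overlaps Sirt2 on the other strand by 778 bases. The sources used here do not give the strand setting of the counting, so the 28.9 to 33.0 CPM of Sirt2 and the reads of Nfkbib may be partly shared. Nfkbie is Entrez gene 18037 on chromosome 17, 45555700 to 45563169, and Nfkbib is Entrez gene 18036 on chromosome 7, 28758251 to 28766644.

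Nfkbia exceeded the mean of Nfkbib and Nfkbie by 2.42, 1.49 and 1.96 log2 units per kilobase, a mean of 1.96 ± 0.47 (SD), or 3.89-fold. The difference was positive in 3 of 3 libraries, with an exact two-sided sign-flip permutation p of 0.25. Against their sum it was 0.90 log2 units. Nfkbia made up 71.9%, 56.6% and 66.0% of the summed inhibitor level in replicates 1, 2 and 3. Summed over each role, the inhibitors reached 125, 96.5 and 111.7 CPM per kilobase and the subunits 137, 172 and 152. The ratio of inhibitors to subunits was thus 0.912, 0.562 and 0.733. These are ratios of RNA, and protein was not measured in these libraries.

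The kinases differed from each other as well. Ikbkb, which encodes the kinase that classical signalling depends on, was read at 194, 374 and 289 CPM (286 ± 89.9), or 42.9, 82.5 and 63.65 CPM per kilobase. It varied most of the 10 genes, with replicate 2 at 1.93 times the level of replicate 1. It lay 2.51 ± 0.15 log2 units above 50 CPM (edgeR adjusted p = 3.69e-06). Chuk, which encodes the kinase that the alternative arm depends on, was read at 67.0, 83.5 and 89.3 CPM (79.9 ± 11.6), or 22.8 ± 3.31 CPM per kilobase, and was 0.68 ± 0.14 log2 units above 50 CPM (edgeR adjusted p = 0.00302). Ikbkb is Entrez gene 16150 on chromosome 8, 22659205 to 22706589, where the annotated antisense gene Gm15346 lies opposite 9382 bases of it. With the strand setting not given, part of the Ikbkb reads may come from that gene. Chuk is Entrez gene 12675 on chromosome 19, 44073334 to 44107505.

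Per kilobase Ikbkb exceeded Chuk by 1.16, 1.79 and 1.32 log2 units, a mean of 1.42 ± 0.33 (SD), or 2.68-fold. The sign was the same in 3 of 3 libraries, with an exact two-sided sign-flip permutation p of 0.25. Ikbkg, the noncatalytic scaffold of the kinase complex, was read at 80.3, 105 and 72.8 CPM, or 11.9 ± 2.33 CPM per kilobase, below both catalytic genes in each library.

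**Figure D2:**
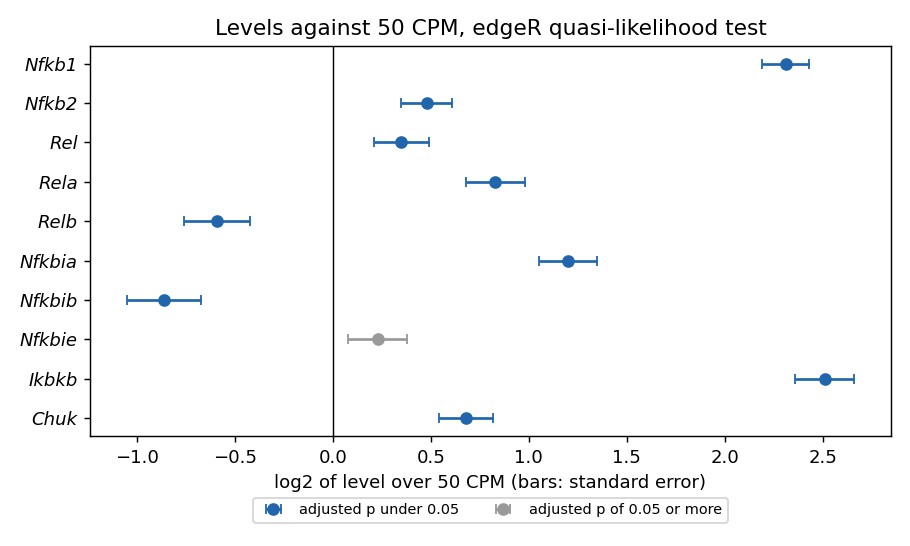
Fitted log2 level of each gene over 50 CPM in edgeR's quasi-likelihood test, with standard errors as bars, for 3 libraries. Of the 10 genes, 7 lie above 0 and 2 below with an adjusted p under 0.05, and Nfkbie, in grey, was not separated.

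By mean CPM per kilobase the order ran Nfkbia, Ikbkb, Nfkb1, Rela, Rel, Nfkbie, Chuk, Nfkb2, Relb and Nfkbib. Of the 9 neighbouring pairs in that order, 3 kept their order in all 3 libraries with a mean difference beyond its SD. These were Nfkb1 over Rela (0.88 ± 0.06 log2 units), Rela over Rel (0.40 ± 0.33) and Nfkb2 over Relb (0.49 ± 0.13). The other 6 pairs did not differ beyond their spread. Nfkbia, Ikbkb and Nfkb1 form an upper tier whose inner order changed between libraries, since Nfkbia exceeded Ikbkb by 1.07 log2 units in replicate 1 and stood at -0.60 against it in replicate 2. Of the genes below Rela, Rel and Nfkbie each exceeded Nfkb2 in all 3 libraries, whereas the order of Rel, Nfkbie and Chuk among themselves changed. Over all 45 pairs, 37 kept their order in all 3 libraries.

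The coefficient of variation between libraries was below the median of the 5994 genes with a mean of 20 to 300 CPM (17.3%) for 6 of them, and above it for Nfkbib, Rela, Nfkbia and Ikbkb (31.5%). The median of all genes tested was 29.0%. The 95% exact Poisson intervals of the highest and the lowest library, which cover counting error only, were separate for 10 of 10 genes and for 85.4% of genes at 20 to 300 CPM. All 3 intervals were separate for 4 of 10, Nfkb1, Rela, Nfkbia and Ikbkb, and for 27.6% of genes at that level. Replicate 2 was highest for 5 of the genes, replicate 3 for 3 and replicate 1 for 2 (Relb and Nfkbia). Of the genes at 20 to 300 CPM, 51.0%, 33.0% and 16.0% were highest in replicates 2, 3 and 1, and of all genes tested 31.96%, 22.8% and 45.2%. Replicate 1 was lowest for 6 of the 10, for 61.6% of genes at 20 to 300 CPM and for 35.1% of all genes tested.

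**Figure D3:**
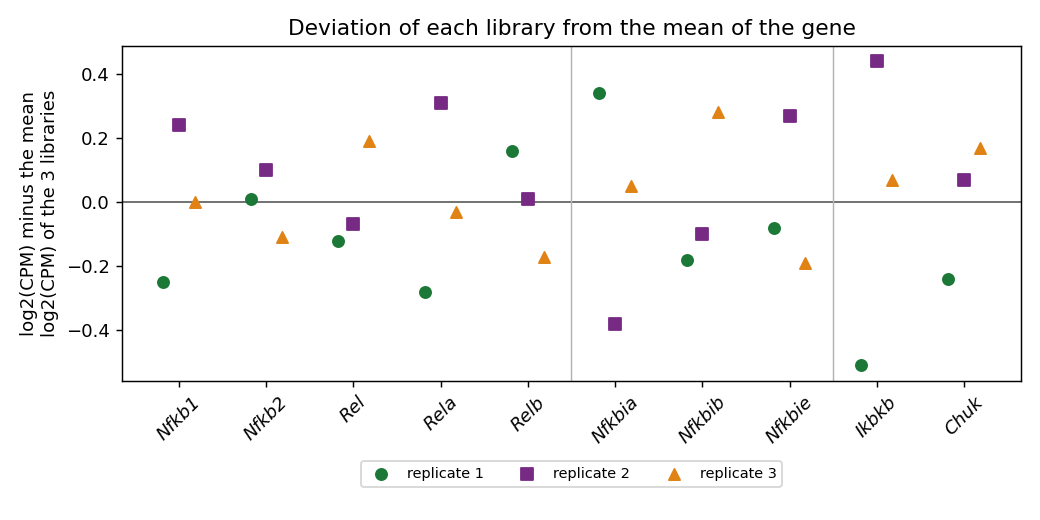
Log2 CPM of each gene in each library minus the mean log2 CPM of that gene over the 3 libraries. Ikbkb, Rela and Nfkb1 are low in replicate 1 and high in replicate 2, while Nfkbia is high in replicate 1 and low in replicate 2.

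Ikbkb, Rela and Nfkb1 shared the order replicate 2, 3, 1, which 23.3% of all genes tested also had. Their deviations from the mean of the gene were 0.44, 0.31 and 0.24 log2 units in replicate 2 and -0.51, -0.28 and -0.25 in replicate 1. Nfkbia ran the other way, at 0.34 log2 units in replicate 1 and -0.38 in replicate 2, an order that 30.3% of all genes tested had. Both shares are over genes of every level. At 20 to 300 CPM, where these members lay, 51.0% of genes were highest in replicate 2 and 61.6% lowest in replicate 1. Only 16.0% were highest in replicate 1, in any order. The natural killer and Cd8a transcripts were likewise highest in replicate 2 (Cd8a at 8.67, 526 and 135 CPM in replicates 1, 2 and 3) and the erythroid and macrophage lists were highest in replicate 1 (macrophage summed level 885.5, 105.5 and 208 CPM, highest there for 7 of 8 markers). The part of these cells in the levels of NF-kappaB genes was not tested. With 3 libraries, a shared order is a description of these libraries and names no gene as alike.

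The other genes of the pathway were taken from 8 lists with 70 genes, of which 67 had enough counts to test. In edgeR's test 57 of these lay above 1 CPM (85.1%, beside 68.6% of all genes tested). Above 50 CPM lay 26 (38.8%, beside 19.9%) and below it 28 (41.8%, beside 66.7%). The median level of the 70 genes was 17.9 CPM per kilobase, against 5.50 for all genes tested. The lists differed in level. In 4 of the 8 lists, those of intracellular signalling genes other than the atypical IkappaB genes, 60.0% to 77.8% of the tested genes lay above 50 CPM, where 19.9% of all genes did. Of the receptor, ligand and target genes tested, 72.7%, 57.1% and 62.5% lay below 50 CPM, near the 66.7% of all genes.

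In the arm that links antigen receptors to the kinase complex, 3 of 5 genes lay above 50 CPM and 2 below. Prkcq, the protein kinase C isoform of T cell receptor signalling, was read at 355.5, 559.6 and 541 CPM (146.5 ± 34.1 CPM per kilobase, edgeR adjusted p = 3.86e-07). Malt1, the protease of the arm, was read at 199, 283 and 293 CPM (51.5 ± 10.3 CPM per kilobase, edgeR adjusted p = 2.37e-06). Both were lowest in replicate 1, as were Ikbkb, 61.6% of genes at 20 to 300 CPM and 35.1% of all genes tested. Bcl10, an adaptor that binds Malt1, was at 20.2 ± 1.28 CPM per kilobase and lay below 50 CPM (35.6 ± 2.25 CPM, edgeR adjusted p = 0.0224, a call lost without replicate 3 at 0.153 and without mitochondrial ribosomal RNA in the totals at 0.101), and Card9, an adaptor of myeloid cells, was lowest per kilobase, at 5.84, 13.0 and 6.55.

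Among the scaffold and upstream kinase genes 7 of 9 lay above 50 CPM and 1 below. Ikbke, an IKK-related kinase, was read at 196, 302 and 307 CPM, or 83.7 ± 19.6 CPM per kilobase. Tab2, an adaptor of the kinase Map3k7, reached 48.4 ± 3.98 CPM per kilobase, while Tab1 (8.45 ± 2.38) and Tab3 (7.06 ± 1.57) were lowest. Of the TRAF and cIAP genes 5 of 7 lay above 50 CPM and 0 below. Traf1, itself a target gene, was read at 79.8, 156.5 and 114 CPM (50.3 ± 16.5 CPM per kilobase) and Birc2, a ubiquitin ligase, at 155, 131 and 163.5 CPM (47.7 ± 5.31). Traf2 (15.55 ± 2.37) and Traf6 (12.3 ± 0.762), adaptors of tumour necrosis factor and interleukin 1 receptors, were lowest per kilobase.

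Of the ubiquitin enzymes and their partners 6 of 8 lay above 50 CPM and 1 below. Tnip1, a partner of the deubiquitinase Tnfaip3, was highest at 64.8 ± 7.72 CPM per kilobase, followed by Rbck1, a subunit of the linear ubiquitin ligase, at 50.01 ± 11.5. Sharpin, another subunit of that ligase, was at 21.6 ± 4.83 and Tnip2 at 12.3 ± 2.145. The atypical IkappaB genes, a list that includes the IkappaB-like Nfkbil1, gave 1 of 4 above and 2 of 4 below 50 CPM. Nfkbiz was read at 121, 125 and 147 CPM (33.7 ± 3.67 CPM per kilobase), Nfkbid at 20.2 ± 3.99, Bcl3 at 13.3 ± 1.47 and Nfkbil1 at 8.46 ± 1.184 CPM per kilobase.

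Of 11 receptor genes 1 lay above and 8 below 50 CPM, with a median of 3.93 CPM per kilobase. Myd88, the adaptor of Toll-like and interleukin 1 receptors, reached 31.7 ± 3.86 CPM per kilobase, and Tnfrsf1b, a receptor for tumour necrosis factor, was read at 94.4, 139.6 and 82.3 CPM (21.5 ± 6.15 CPM per kilobase, edgeR adjusted p = 6.33e-04). Tnfrsf11a, the receptor RANK, was at 0.870 ± 0.555 and Il1r1 at 0.436 ± 0.286 CPM per kilobase. Of 7 ligand genes 1 lay above and 4 below 50 CPM. Ltb, the membrane-bound lymphotoxin chain, was read at 153, 163 and 188 CPM, or 153 ± 16.2 CPM per kilobase. Cd40lg, the ligand of CD40 made by helper T cells, was read at 69.7, 25.3 and 73.6 CPM, and Cd4 was likewise lowest in replicate 2 (482, 167 and 470.4 CPM). So were 24.5% of genes at 20 to 300 CPM and 41.3% of all genes tested. Tnfsf11, the ligand of RANK, was at 4.28 ± 2.00 and Tnfsf13b, a survival factor of B cells, at 0.799 ± 0.458 CPM per kilobase.

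Of 19 target genes listed, 16 could be tested, 8 lay above 1 CPM, 2 above 50 CPM and 10 below it, and the median was 1.52 CPM per kilobase. These shares are 12.5% above and 62.5% below 50 CPM, beside 19.9% and 66.7% of all genes. Without replicate 3 the number below 50 CPM was 1. Ccl5, a chemokine of cytotoxic lymphocytes, was read at 37.4, 279 and 102.5 CPM, with replicate 2 highest as for the natural killer list, and its call above 50 CPM (edgeR adjusted p = 0.00672) was lost with robust empirical Bayes (0.129) and in DESeq2 (0.0530). Junb, an immediate early gene, was read at 209, 108 and 191 CPM (91.9 ± 29.2 CPM per kilobase, edgeR adjusted p = 6.59e-05) and stood lowest in replicate 2, as Nfkbia did. The same held for 24.5% of genes at 20 to 300 CPM and 41.3% of all genes tested. Ccl22, a chemokine of mature dendritic cells, was read at 0.634, 0 and 0.0760 CPM, and Cxcl1, a chemokine that attracts neutrophils, at 0, 0 and 0.0760 CPM. A count of 0 allows up to 3 counts, or 0.317, 0.214 and 0.228 CPM in replicates 1, 2 and 3.

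Of the 16 target genes tested 11 were highest in replicate 1, where 45.2% of all genes tested were highest. That share depended on level, since it was 16.0% for genes at 20 to 300 CPM. The listed target genes had a median of 1.68 CPM. No share was taken for genes that low, so the count is not read as a trait of the target genes. Replicate 1 also held the erythroid, B cell and macrophage transcripts given above, and it had the fewest genes without a count (632, against 3788 and 2199 in replicates 2 and 3). Whether these bear on the target genes was not tested.

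**Figure D4:**
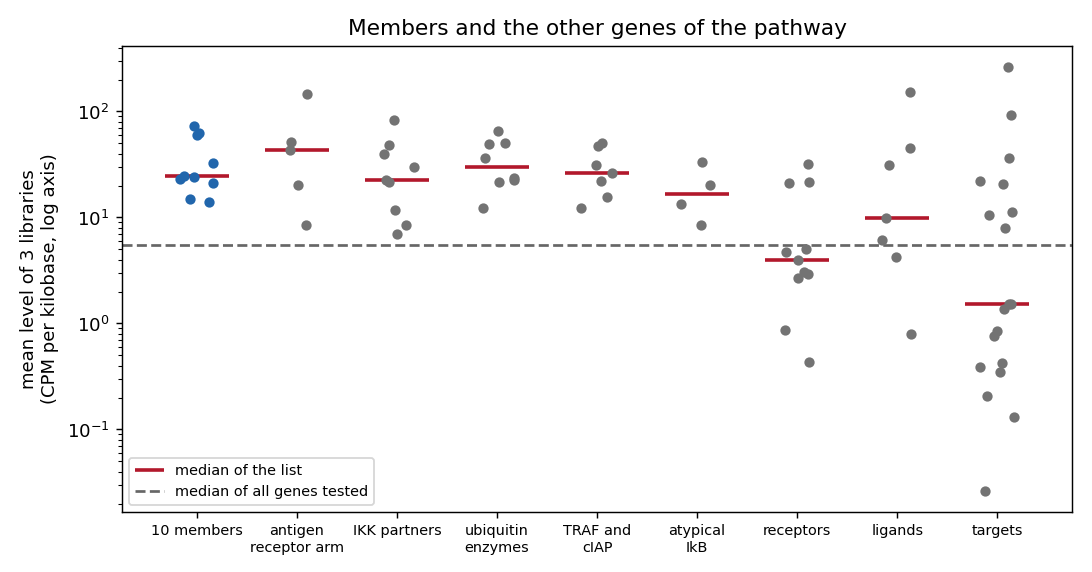
Mean level over the 3 libraries in CPM per kilobase, on a log axis, with one point per gene, for the 10 genes described here and for 8 lists of other pathway genes. Red bars mark the median of each list and the dashed line the median of all genes tested (5.50), and receptors and targets have medians below that line.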

How the data were processed

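The values the authors deposited are raw counts of reads, in whole numbers, for 17857 genes in 3 libraries, and the table also lists Entrez identifiers and gene lengths. Per the labels' protocols, 8 ng of total RNA went into each stranded low-input library. STAR 2.75, featureCounts and DESeq2 1.18.1 with mm10 are named without roles per the submitters' processing notes. The sources used here do not give the annotation release, the strand setting or any gene filter.

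The genes and lists were chosen with earlier results of these data known. CPM used TMM factors of 1.04, 1.01 and 0.950 (edgeR 4.0.16). The 15490 genes whose counts summed to 10 or more were tested against 1 and 50 CPM with edgeR's quasi-likelihood F statistic on an intercept, the reference entering through the offset, two-sided, with Benjamini and Hochberg's adjustment over all genes tested and a threshold of 0.05. The statistic was written out because edgeR refuses a design of 1 column, and was tested on simulated data. Standard errors are those implied by it. Differences between genes were taken within each library and given an exact sign-flip permutation test. Gene spans come from RefSeq on GRCm38.p6, 1-based. Alternatives were DESeq2 1.42.0 size factors and Wald test, limma 3.58.1, other filters, robust empirical Bayes, totals without mitochondrial ribosomal RNA and leaving out each library. In a check for duplicates, pairs of libraries differed by 42.1 to 114.5 in chi-square per degree of freedom, so no pair agreed within sampling noise.

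Named were the 10 genes, Ikbkg, the sort genes and, from each pathway list, the 2 highest and 2 lowest genes per kilobase. Other names were chosen after their values were seen. One gene of a pathway list is not reported here and was left out of the list.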

Additional observations from a re-analysis of the deposited data

How the results depend on the processing

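Across 11 alternatives, 102 of 110 calls of the 10 genes against 50 CPM and 110 of 110 against 1 CPM stayed on the same side of the threshold, and 0 changed direction. The calls that moved are those of Rel, Nfkb2, Relb and Nfkbie given above. The number of all genes below 50 CPM, 10336, was 6143 with edgeR's own expression filter, which tests fewer genes, and ran from 5513 without replicate 3 to 10588 without replicate 2. The number of the 10 genes below 50 CPM was 1 without replicate 3 and 2 without replicate 1 or 2; the cause was not tested. The 4 differences between genes kept their sign in every alternative run, but 3 libraries cannot give a p under 0.25 and 2 cannot give one under 0.5. Mitochondrial ribosomal RNA made up 17.8%, 6.22% and 13.1% of the counts of replicates 1, 2 and 3. Leaving it out of the totals, with the TMM factors fitted again, raised all levels by 0.191, 0.191 and 0.195 log2 units. Levels of genes relative to one another are not touched by that. No paired analysis was possible because the libraries form 1 group. Depth limits the low target genes, where a few counts set the level.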
